A study of Mus musculus with 6 samples.

Results

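The genes described here encode adenylyl cyclases, the membrane enzymes that make cyclic AMP (cAMP) from ATP. They are Adcy1, Adcy2, Adcy3, Adcy5, Adcy6, Adcy7, Adcy8 and Adcy9, and they were taken by gene symbol as 8 of the 32286 genes counted in single nuclei of the mouse cerebellum. Each gene's UMIs (unique molecular identifiers, 1 for each captured RNA molecule) were summed over the nuclei of 1 mouse that carried 1 cell type label. The question was in which cell types each cyclase was found, and whether its level differed between spinocerebellar ataxia type 1 (SCA1) mice and wild-type (WT) mice.

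Whole cerebella were taken from 3 SCA1 mice of the strain Pcp2-ATXN1[82Q] and 3 WT mice of the strain C57Bl6, all 12 weeks old. The SCA1 mice carry a human ATXN1 transgene whose CAG repeat is expanded, and the Pcp2 promoter drives it. Among cerebellar cells this promoter works in Purkinje cells (PCs), so the line models the disease as driven from that 1 cell type. Each mouse gave 1 library. Human ATXN1 was found in 10 of 65, 10 of 52 and 11 of 29 PC nuclei of the 3 SCA1 mice and in 0 of 146 PC nuclei of the WT mice. Outside PCs such UMIs occurred in both genotypes, in 37 of 8779, 36 of 5921 and 39 of 5799 GN nuclei of the SCA1 mice and in 26 of 8491, 16 of 5770 and 14 of 2772 of the WT mice. In BG 3 nuclei of WT mouse 1 held one, so a single UMI does not by itself mark expression of the transgene.

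Membrane-bound adenylyl cyclases are switched on by the stimulatory G protein and most are held back by inhibitory G proteins. The isoforms differ in what else they read. Adcy1, Adcy3 and Adcy8 are stimulated by calcium and calmodulin, Adcy2 and Adcy7 respond to G protein beta-gamma subunits and protein kinase C, Adcy5 and Adcy6 are inhibited by calcium, and Adcy9 is widely expressed and insensitive to the plant compound forskolin. In the cerebellum Adcy1 is known for its high expression in granule neurons, and calcium-stimulated cyclases are tied to synaptic plasticity.

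The libraries held 3354 to 10897 nuclei and 18916647 to 98366627 UMIs, 45473 nuclei in all, and the median UMIs per nucleus ran from 2246.5 in WT mouse 2 to 7253 in WT mouse 1. Of the barcodes, 254 occurred in more than 1 library, and at most 44 were shared by any pair of libraries. The 5 main labels held 292 PC, 1243 Bergmann glia (BG), 1014 velate astrocyte (VA), 1384 oligodendrocyte (OL) and 37532 granule neuron (GN) nuclei, and 11 further labels of at least 50 nuclei were used for levels. Levels are counts per 1000000 UMIs (CPM) of the summed nuclei, scaled by the TMM factors of edgeR, and are given as mean ± SD over mice. The main labels carried their defining markers: Pcp2 stood at 605 CPM in PCs, Gdf10 at 120.3 in BG, Aqp4 at 1151 in VA and 219 in BG, Mog at 731 in OL and Gabra6 at 741 in GN. The label Endothelial_Tip.Dcn.Nnat carried fibroblast genes (Dcn 374 CPM, Col1a2 347 CPM) with the endothelial genes Cldn5 and Pecam1 at 1.87 and 2.28 CPM, so it is called by its label alone. The label Neuron.Slc17a6.Sln carried the unipolar brush cell genes Lmx1a (488 CPM) and Eomes (99.5 CPM), and Neuron.Gad1Gad2.Lgi2 had the highest sum of the Golgi cell genes Slc6a5, Lgi2 and Grm2 (655 CPM, against 108 CPM in the next label).

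Each cyclase had its own distribution over the cerebellar cell types. Adcy1 was highest in GN, Adcy2 in the Neuron.Slc17a6.Sln label and BG, Adcy5 and Adcy6 in the Endothelial_Tip.Dcn.Nnat label, Adcy7 in microglia, and Adcy8 in the inhibitory neuron labels Neuron.Gad1Gad2.Lgi2 and Neuron.Gad1Gad2.Pvalb-Cadm1. Adcy9 was found at 63.1 to 253 CPM in all 16 labels. Summed over the 8 genes without regard to length, the Neuron.Slc17a6.Sln label stood highest at 1888 CPM and Neuron.Gad1Gad2.Lgi2 next at 1033 CPM. Of the main labels, BG, VA and GN reached 960, 887 and 884 CPM, and OL and PC 378 and 361 CPM. Adcy2, the longest gene, made up 70.2% of the sum in Neuron.Slc17a6.Sln and 50.9% in BG. CPM is a share of a label's UMIs, and the median UMIs per nucleus were 36466.5 in PC, 8341 in BG and 5923 in GN. These sums therefore do not rank the labels by cyclase RNA per nucleus. The sums also give long genes more weight, so their order need not hold per length.

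**Figure D1:**
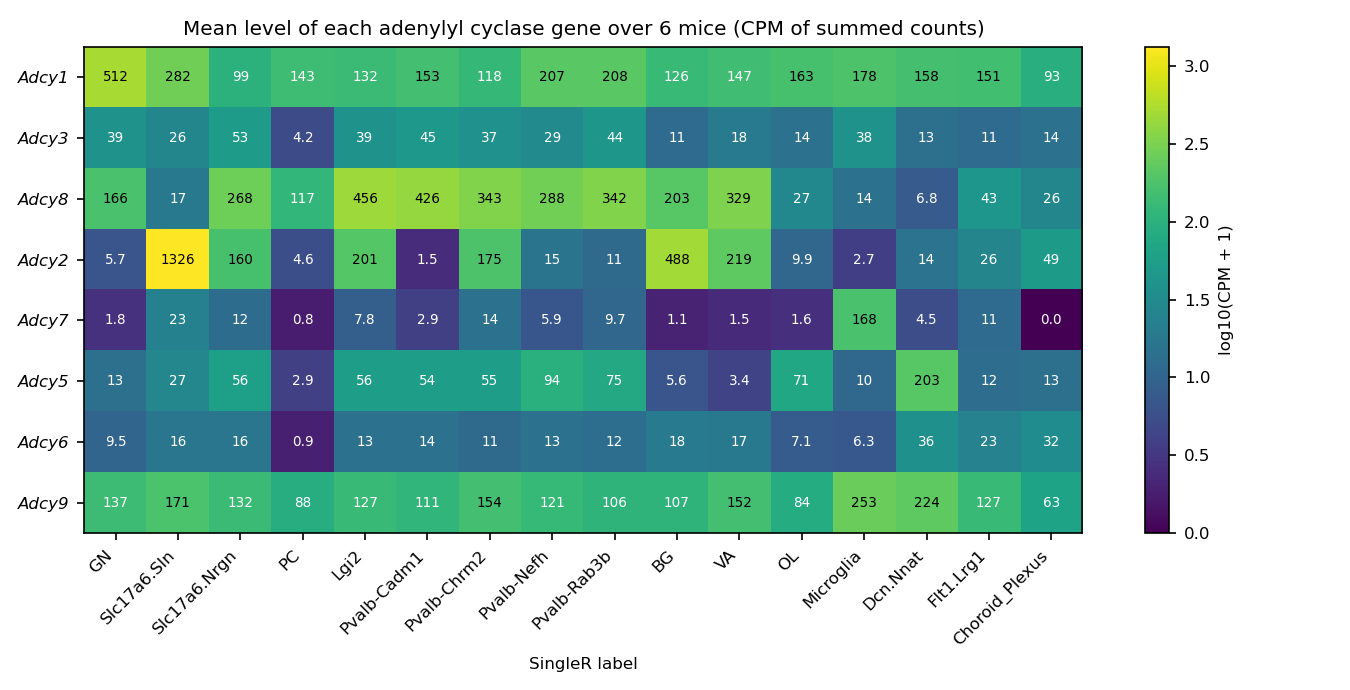
Mean level of the 8 adenylyl cyclases (rows) in 16 cell type labels (columns), in CPM over 6 mice, with the colour on the scale log10(CPM + 1). The rows peak in different columns, apart from Adcy5 with Adcy6 and Adcy7 with Adcy9, which share one, with Adcy1 in GN at 512 CPM, Adcy2 in Neuron.Slc17a6.Sln at 1326 CPM and Adcy7 in microglia at 168 CPM, while Adcy9 is spread over every column.

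Among the calcium-stimulated cyclases, Adcy1 (chr11:7063489-7178506, forward strand, GRCm38) reached 512 ± 60.5 CPM in GN (n = 6). Neuron.Slc17a6.Sln followed at 282 ± 96.6 CPM. In every one of the 6 mice GN stood above that label, by 0.92 on the log2 scale (SD 0.43, two-sided exact permutation p = 0.03125, the smallest that 6 mice allow, adjusted p = 0.25). The other main labels lay close together, at 163 ± 102 CPM in OL, 147 ± 98.0 in VA, 143 ± 20.1 in PC and 126 ± 73.0 in BG.

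Adcy8 (chr15:64697084-64922296, reverse strand) was highest in some, but not all, of the inhibitory neuron labels. It stood at 456 ± 107 CPM in Neuron.Gad1Gad2.Lgi2 and 426 ± 195 CPM in Neuron.Gad1Gad2.Pvalb-Cadm1, and these neighbours did not differ beyond their spread (higher in 3 of 6 mice, exact permutation p = 0.406). Among the main labels the order was VA at 329 ± 82.5, BG at 203 ± 66.3, GN at 166 ± 57.6, PC at 117 ± 76.6 and OL at 27.4 ± 11.2 CPM. Adcy8 was lowest in microglia (13.5 CPM) and in Endothelial_Tip.Dcn.Nnat (6.84 CPM), with 2 of 6 mice at 0 in each. Adcy3 (chr12:4133103-4213525, forward strand), known for its place in primary and olfactory cilia, was low in every label. It stood at 52.5 ± 12.6 CPM in Neuron.Slc17a6.Nrgn, 38.8 ± 5.86 in GN, 37.8 ± 30.1 in microglia, 18.2 in VA, 13.7 in OL, 11.2 in BG and 4.19 in PC, the lowest of the 16 labels.

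Of the cyclases that respond to beta-gamma subunits and protein kinase C, Adcy2 (chr13:68620043-68999541, reverse strand) had the widest range. It was at 1326 ± 308 CPM in Neuron.Slc17a6.Sln, 488 ± 197 in BG and 219 ± 59.4 in VA, but at 9.86 in OL, 5.69 in GN and 4.61 in PC. BG stood above VA in 6 of 6 mice, by 1.10 on the log2 scale (SD 0.34, exact permutation p = 0.03125, adjusted p = 0.25). Adcy7 (chr8:88272403-88329962, forward strand), a cyclase of blood and immune cells, was at 168 ± 55.8 CPM in microglia, the immune cells of the brain, with 110.7 CPM in the lowest and 256 CPM in the highest mouse. The next label reached 22.6 CPM, which was lower in 6 of 6 mice by a mean of 2.82 on the log2 scale (SD 0.59, exact permutation p = 0.03125, adjusted p = 0.25). In all 5 main labels Adcy7 was at 1.76 CPM or less, and it was listed at 0 in the choroid plexus label of all 6 mice. That label held 83 nuclei, as few as 5 in a mouse, so the 0 does not set it apart from the main labels.

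The calcium-inhibited pair shared its top label. Adcy5 (chr16:35154877-35305738, forward strand), best known from the striatum, was at 203 ± 47.6 CPM in Endothelial_Tip.Dcn.Nnat, 94.2 ± 17.0 in Neuron.Gad1Gad2.Pvalb-Nefh and 71.3 ± 18.9 in OL. It was low in GN (13.05 CPM), BG (5.59), VA (3.42) and PC (2.90). Adcy6 (chr15:98589973-98610076, reverse strand) was at 35.7 ± 12.3 CPM in Endothelial_Tip.Dcn.Nnat, 32.4 ± 18.5 in the choroid plexus label and 23.2 ± 32.5 in Endothelial_Stalk.Flt1.Lrg1, a label with Flt1 at 3781 CPM. The top label stood above the next in 4 of 6 mice (exact permutation p = 0.625), and the next labels each had 1 mouse at 0 and as few as 5 and 4 nuclei in a mouse, so the order of these 3 is not set. BG and VA stood next to each other for Adcy6 at 18.3 ± 4.91 and 17.3 ± 4.65 CPM, and PC nuclei held almost none (0.907 ± 1.16 CPM, with 3 of 6 mice at 0).

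Adcy9 (chr16:4287529-4420498, reverse strand) had the flattest order. Microglia stood at 253 ± 106 CPM and Endothelial_Tip.Dcn.Nnat at 224 ± 54.0, with VA at 152, GN at 137, BG at 107, PC at 87.9 and OL at 84.2 CPM. Of the 120 neighbouring pairs in the 8 orders, 15 differed in the same direction in all 6 mice at an exact permutation p of 0.03125, and after adjustment over the 120 pairs 0 passed 0.05. Because 6 mice allow no smaller p, 15 such pairs could reach an adjusted p of 0.25 at best. The adjusted test therefore could not settle which neighbours differ. For Adcy9, 0 of 15 pairs reached an unadjusted p of 0.05.

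Apart from the sums given earlier, levels of different genes were compared only per length. The scale was CPM per kilobase (kb) of the gene's span from its start to its end, since nuclear RNA holds introns. On that scale Adcy1 led in GN at 4.45 CPM per kb, with Adcy9 at 1.03 and Adcy8 at 0.735. In BG the leading genes were close: Adcy2 1.29, Adcy1 1.09, Adcy6 0.911, Adcy8 0.900 and Adcy9 0.804 CPM per kb. Adcy6, the shortest gene at a span of 20.1 kb, thus stood beside Adcy8 in BG although its CPM was far lower. Adcy8 led in VA at 1.46 CPM per kb, and Adcy1 led in OL and PC at 1.42 and 1.24. The 5 lowest genes of PCs were all at or below 0.052 CPM per kb.

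**Figure D2:**
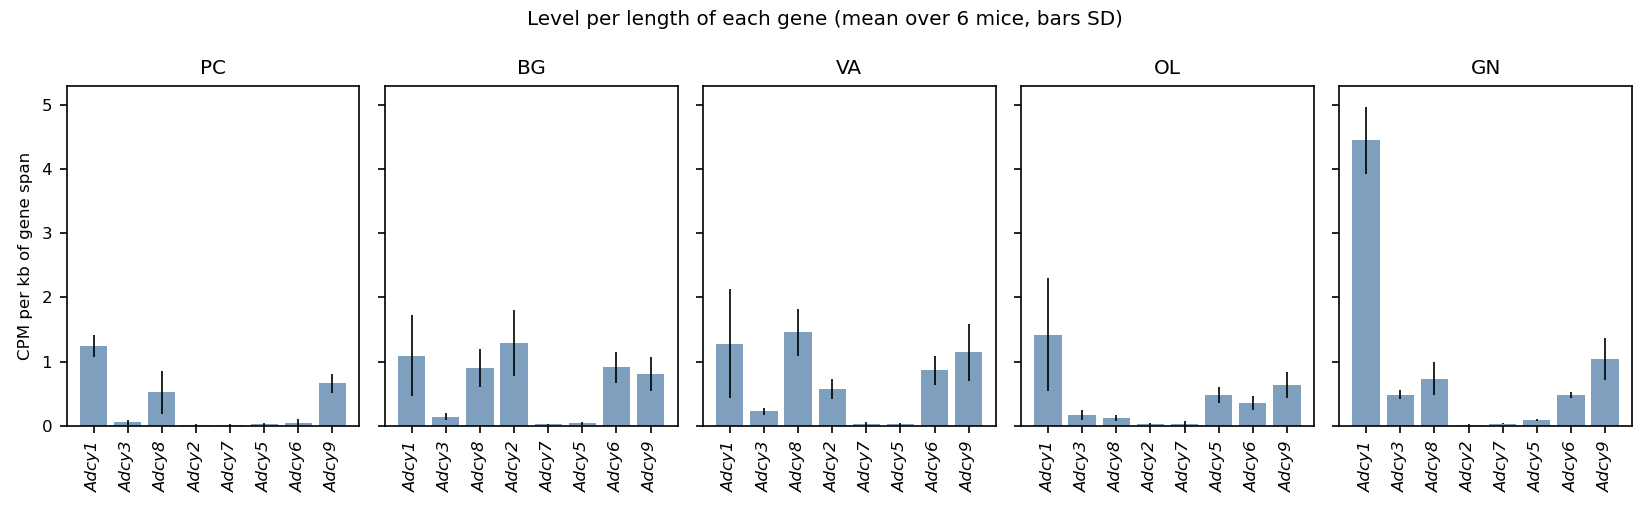
Level of each cyclase per kb of gene span in the 5 main labels, as CPM per kb, with bars for the mean and error bars for the SD over 6 mice. Adcy1 stands out in GN at 4.45 CPM per kb, and in BG and VA several genes lie near 1 CPM per kb, while in OL Adcy1 alone stands above it at 1.42.

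The differences between cell types were then tested in 1 edgeR fit of the 5 main labels with the mouse as a block. Each label was set against the mean of the other 4, and a gene was called at an adjusted p of at most 0.05 with a log2 difference of at least 1 in size. Adcy7 was too low to be tested. In GN, Adcy1 (1.83 ± 0.16 SE, adjusted p = 1.53e-10) and Adcy3 (1.75 ± 0.16, adjusted p = 2.61e-10) were higher and Adcy2 was lower (−3.14), where 10.1% of all 13074 genes were called higher and 16.9% lower. In BG, Adcy2 (4.88 ± 0.23, adjusted p = 3.30e-16) and Adcy6 (1.44 ± 0.21, adjusted p = 2.13e-06) were higher and 0 of 7 genes were lower, beside 12.9% and 8.44% of all genes.

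In VA, Adcy2 (3.32), Adcy8 (1.55 ± 0.16, adjusted p = 2.80e-09) and Adcy6 (1.40) were higher and Adcy5 was lower (−1.45), beside 13.7% and 5.52% of all genes. In OL, Adcy5 was higher (3.39 ± 0.21, adjusted p = 6.25e-14) and Adcy2 (−2.15) and Adcy8 (−2.73 ± 0.21, adjusted p = 1.66e-11) were lower, beside 10.8% and 12.8% of all genes. In PCs 0 of 7 genes were called higher and 4 were lower, namely Adcy2 (−2.91), Adcy6 (−2.69), Adcy3 (−1.62) and Adcy5 (−1.52), beside 14.1% and 21.2% of all genes. Adcy1, Adcy9 and Adcy8 were not called in PCs, at 0.10, 0.10 and 0.13. The fit scaled the sums across labels, which was not done for the CPM levels. The place of PCs in the CPM orders of these genes can therefore depend on the scaling. In the order PC, BG, VA, OL and GN the median log2 difference of the 7 genes was −1.52, −0.10, 0.43, −0.47 and 0.28, and over all genes it was −0.13, −0.02, 0.02, −0.05 and 0.02. PCs, the cells in which the transgene is driven, thus held Adcy1, Adcy8 and Adcy9 and little of the other cyclases.

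Adcy1 in the non-granule labels was set beside 4 genes of granule neurons, Gabra6, Fat2, Etv1 and Cbln3, because GN made up most nuclei and free RNA enters all droplets. In PCs Adcy1 stood at 27.9 ± 1.72% of its GN level (n = 6), and the median of the 4 granule genes at 5.29 ± 4.53%, with Adcy1 above that median in 6 of 6 mice. In BG the values were 24.3 ± 12.5% and 18.5 ± 9.70% (above in 6 of 6 mice). In VA they were 28.3 ± 16.8% and 22.2 ± 10.4% and in OL 31.6 ± 17.6% and 23.6 ± 11.6%, above in 5 of 6 mice in each. By these means Adcy1 lay nearer to the genes that mark granule neurons in the glial labels than in PCs, though above them in most mice. Adcy1 was highest in mouse 1 of both genotypes in 16 of 16 labels, GN included, and the part of free granule RNA in these levels was not tested.

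**Figure D3:**
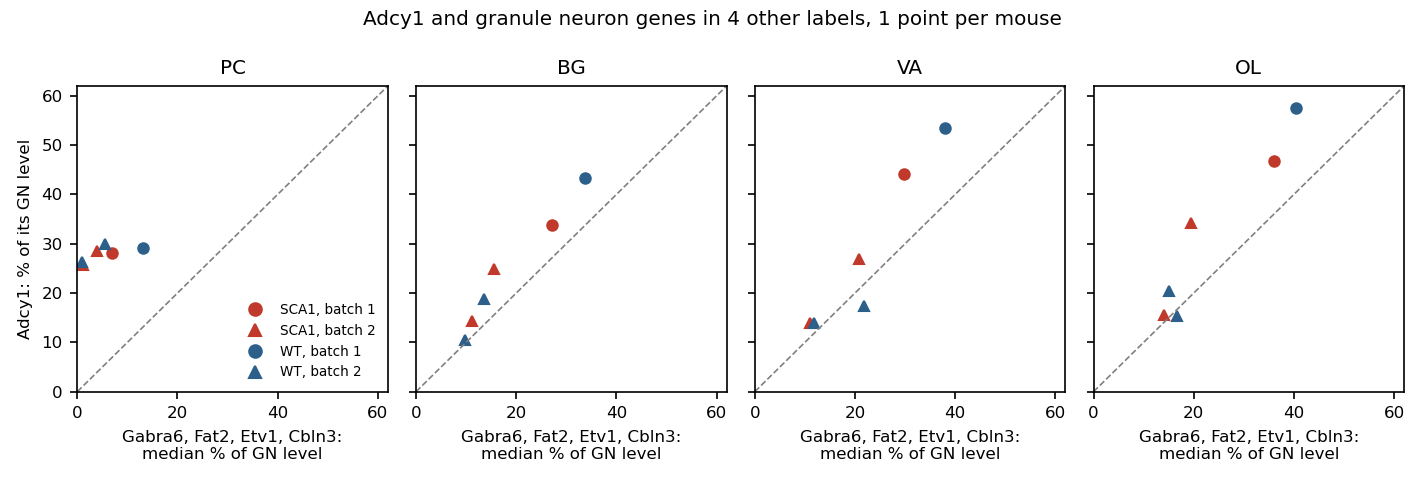
Level of Adcy1 as a percentage of its GN level (vertical axis) against the median of the same percentage for 4 granule neuron genes (horizontal axis) in PCs, BG, VA and OL, with 1 point for each mouse (circles batch 1, triangles batch 2). All PC points lie above the line of equal percentages. The glial points rise along it with batch 1 at the upper end, and most lie above it. Some are as far above it as the nearest PC point: OL of WT mouse 1 is at 57.5% against 40.5%, and PC of WT mouse 1 at 29.2% against 13.2%.

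The SCA1 and WT mice were compared label by label by the quasi-likelihood test of edgeR, adjusted for batch, with Benjamini-Hochberg adjustment over all genes tested in the label. Of the 104 pairs of a cyclase and a label, 77 could be tested in 13 labels and 0 passed an adjusted p of 0.05. Of all genes, 0% were called in PC, BG, VA and the other 8 labels together, 0.00917% in OL and 0.00566% in GN, so few genes of any kind passed. At an unadjusted p under 0.05 there were 2 of the 77 pairs, Adcy8 in BG and Adcy1 in Endothelial_Tip.Dcn.Nnat. Over all genes there were 653 of 9821 in PC, 191 of 11093 in BG, 107 of 10548 in VA and 88 of 10900 in OL. In GN there were 313 of 17656 and in Endothelial_Tip.Dcn.Nnat 154 of 7329. In 7 of the 77 pairs the values of the SCA1 and WT mice did not overlap, and the same held for 10.3% of all genes in PC, 4.71% in BG, 4.58% in VA and 3.52% in OL, and for 3.2% in GN and 5.4% in the other 8 labels together. The samples behind these tests are 3 mice of each genotype.

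**Figure D4:**
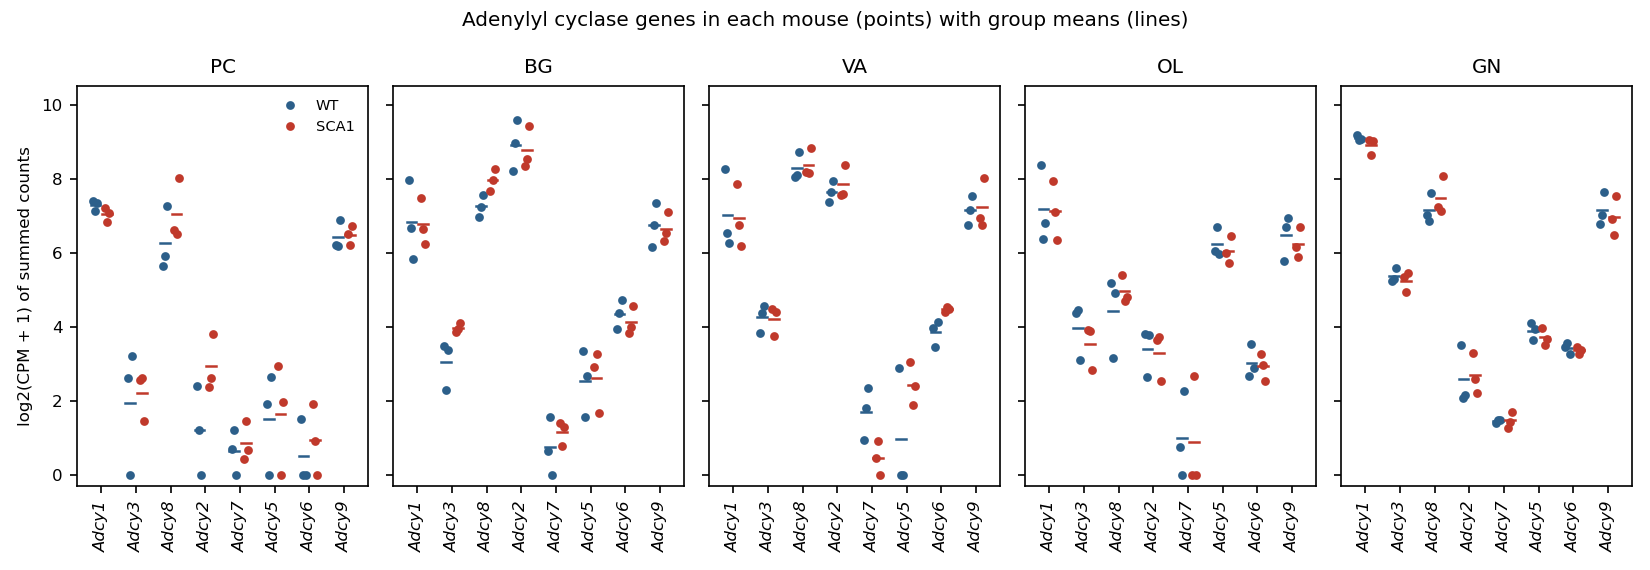
Level of the 8 cyclases in each mouse in the 5 main labels, as log2(CPM + 1), with 1 point for each mouse (WT blue, SCA1 red) and a line at each group's mean. Most genes overlap between genotypes, and the 3 SCA1 points of Adcy8 and Adcy3 in BG lie above the 3 WT points.

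Adcy8 in BG had the lowest p of the 77 pairs. Its level was 203, 249.5 and 304 CPM in SCA1 mice 1, 2 and 3 and 123, 150.1 and 187 CPM in WT mice 1, 2 and 3, from 77 to 748 UMIs a mouse. All 3 SCA1 mice stood above all 3 WT mice. The means were 252 ± 50.8 and 153 ± 32.1 CPM (SD, n = 3 each), a log2 fold change of 0.72 (SE 0.22, edgeR unadjusted p = 0.00842, adjusted p = 1.00). The difference was 0.72 on the log2 scale within batch 1, with 1 mouse of each genotype, and 0.72 within batch 2, with 2 of each. Without SCA1 mouse 1, WT mouse 1 or WT mouse 2 the unadjusted p rose to 0.0622, 0.0610 and 0.0509.

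More BG nuclei of the SCA1 mice held an Adcy8 UMI once every nucleus was thinned to 3000 UMIs. The SCA1 mice had 44.6%, 49.2% and 45.9% and the WT mice 27.4%, 30.0% and 33.7%, and no WT mouse reached the lowest SCA1 mouse. The means were 46.6 ± 2.36% and 30.4 ± 3.17% (exact permutation p = 0.1, two-sided, the smallest that 3 against 3 allow), and without thinning 68.2 ± 6.05% and 51.2 ± 12.5% (exact permutation p = 0.1). Thinning left out 16 of 696 SCA1 and 56 of 547 WT nuclei. As a label low in Adcy8, OL had a UMI in 5.89% of its thinned nuclei, so the BG shares were well above the share in OL. The nucleus richest in Adcy8 held 1.87% to 6.49% of a mouse's BG UMIs of the gene, so no single nucleus carried the sum.

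Marker lists of other cell types were also counted in BG, among them those of the inhibitory interneurons and of VA. The summed level of Sorcs3, Nxph1, Ptprk and Kit in BG ran from 32.7 to 121 CPM in the SCA1 mice and from 19.5 to 71.2 CPM in the WT mice, against 5333 CPM in Neuron.Gad1Gad2.Pvalb-Cadm1. This list does not mark only cells rich in Adcy8, since it stood at 1370 CPM in OL and 772 CPM in Endothelial_Tip.Dcn.Nnat, both below BG in Adcy8. The Golgi list ran from 2.91 to 23.9 CPM and from 3.90 to 27.4 CPM. The mean interneuron sum was higher in SCA1 mice, as Adcy8 was, at 78.2 and 44.9 CPM. The sum of the VA markers Aqp4, Slc6a11 and Gfap in BG ran from 242 to 413 CPM in SCA1 and from 207 to 321 CPM in WT mice, against at least 1337 CPM in VA itself. The sum of the BG markers Gdf10, Hopx, Slc1a3 and Timp4 ran from 3236 to 4594 CPM and from 3669 to 5075 CPM. The ranges of these 4 lists overlapped between genotypes. Those of a further pair did not: the fibroblast sum of Dcn, Col1a2 and Lum in BG was 45.8 to 59.5 CPM in SCA1 and 25.3 to 40.0 CPM in WT mice, and the mural sum of Pdgfrb and Rgs5 was 32.7 to 36.9 CPM and 39.0 to 57.3 CPM. The label Endothelial_Tip.Dcn.Nnat, which carried the fibroblast genes, had Adcy8 at 6.84 CPM, lower than BG. The part of all these cells in the BG differences was not tested. On the opposite strand, Gm21798 (chr15:64817694-64937996, forward) shares 104.6 kb with Adcy8 and stood at 31.4% to 38.7% of the Adcy8 level in the 5 main labels. In BG it was at 82.5 ± 54.4 CPM in SCA1 and 58.2 ± 38.4 CPM in WT mice (log2 fold change 0.51, SE 0.23, unadjusted p = 0.0501, edgeR). How the counting used strand is not given in the sources used here, and whether the 2 genes share reads was not tested.

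In PCs Adcy8 stood at 96.3, 90.1 and 255 CPM in SCA1 mice 1, 2 and 3 and at 49.0, 59.5 and 151 CPM in WT mice 1, 2 and 3. Mouse 3 was highest in both genotypes, and the groups overlapped. The means were 147 ± 93.5 and 86.4 ± 56.0 CPM, a log2 fold change of 0.80 (SE 0.40, edgeR unadjusted p = 0.0703, adjusted p = 0.814). Leaving out 1 mouse at a time, it ran from 0.33 (without SCA1 mouse 3) to 1.27 (without WT mouse 3). With a replicate block in place of batch the edgeR adjusted p was 0.0308, a call that was lost without the nucleus described next. A single nucleus held 280 of the 438 Adcy8 UMIs of SCA1 mouse 3, at 3524 CPM against 94.8 CPM in the other 28 PC nuclei of that mouse. This nucleus had 79450 UMIs, with the median of that mouse's PCs at 58288, so its depth did not set it apart.

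The same nucleus carried less of the Purkinje genes than its neighbours. Calb1, a calcium buffer, was at 12.6 CPM against 840 CPM, Itpr1, the calcium release channel, at 1901 against 11022 CPM and Pcp2 at 138 against 370.0 CPM. The interneuron genes Sorcs3, Ptprk and Kit had 0 UMIs, and human ATXN1 had 1 UMI. Nxph1 had 7 UMIs and was at 88.1 against 35.4 CPM. The inhibitory neuron genes Gad1 and Gad2 were at 138 against 193 CPM and 12.6 against 163 CPM. Gm21798, which overlaps Adcy8, was at 2203 against 36.6 CPM. Without this nucleus, a setting chosen after seeing the data, the PC means were 94.5 ± 3.79 CPM in SCA1 and 86.1 ± 55.7 CPM in WT mice, and the log2 fold change was 0.23 (SE 0.34, edgeR unadjusted p = 0.519, adjusted p = 0.997). The nucleus lies in batch 2 and did not enter the difference within batch 1, which was 0.96 on the log2 scale from 1 mouse of each genotype, beside 0.67 within batch 2 with the nucleus kept. In the share of PC nuclei with an Adcy8 UMI, where a nucleus counts once, the means were 26.8 ± 4.69% in SCA1 and 19.4 ± 7.52% in WT mice after thinning to 3000 UMIs (exact permutation p = 0.3) and 76.2 ± 26.1% and 57.3 ± 11.7% without (exact permutation p = 0.3). The nucleus counted among the 11 PC nuclei of that mouse with a human ATXN1 UMI, a class that a single UMI can set, and their summed Adcy8 level was 483 CPM with it and 89.6 CPM without it. Over the 3 SCA1 mice the nuclei with human ATXN1 had 233 ± 216 CPM and those without it 100.6 ± 7.14 CPM, beside 78.8 ± 45.3 CPM in WT PCs, all scaled by library size. Of 112 sums of a cyclase in PC, BG, VA or OL with at least 20 UMIs, 3 had at least 25% in 1 nucleus, all of them in PCs.

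Elsewhere the Adcy8 values of the genotypes overlapped. In VA the SCA1 mice had 286, 281 and 451 CPM and the WT mice 264, 272 and 417 CPM, a log2 fold change of 0.09 (SE 0.27, edgeR unadjusted p = 0.738). GN gave 0.34 (SE 0.31, unadjusted p = 0.312) and OL 0.26 (SE 0.34, unadjusted p = 0.453), and leaving out 1 mouse at a time these ran from 0.0082 (without SCA1 mouse 3) to 0.58 (without WT mouse 3) and from 0.052 (without WT mouse 2) to 0.60 (without WT mouse 3). The fitted change was above 0 in 11 of the 11 labels where Adcy8 could be tested, from 0.0098 to 0.80, but it was above 0 in 7 of 11 without SCA1 mouse 1, SCA1 mouse 3, WT mouse 1 or WT mouse 2, each in turn. The labels come from the same 6 mice and are not independent. The difference between BG and GN in the SCA1 effect on Adcy8 was 0.43 (SE 0.26, edgeR interaction unadjusted p = 0.127), and for PC it was 0.41 (SE 0.33, unadjusted p = 0.234). Of the 8 cyclases, 0 passed the interaction test of PC, BG, VA or OL with GN, and of all genes 0% passed in any of the 4.

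Adcy1 lay lower in SCA1 mice in the fitted change of 13 of 13 labels, from −0.73 to −0.03. In GN it was at 524, 395 and 516 CPM in SCA1 mice 1, 2 and 3 and at 573, 527 and 536 CPM in WT mice 1, 2 and 3. The groups did not overlap, but SCA1 mouse 2 alone set most of the distance. The log2 fold change was −0.19 (SE 0.22, edgeR unadjusted p = 0.409), with means of 478 ± 72.2 and 545 ± 23.9 CPM. In PCs the change was −0.25 (SE 0.19, unadjusted p = 0.211), from 131 ± 17.3 and 156 ± 15.3 CPM, and in BG, VA and OL it was −0.08, −0.09 and −0.06. In Endothelial_Tip.Dcn.Nnat the change was −0.73 (SE 0.30, edgeR unadjusted p = 0.0340, adjusted p = 0.9998), from 120 ± 70.6 CPM in SCA1 and 196 ± 122 CPM in WT mice. The groups overlapped there, and leaving out 1 mouse at a time the change ran from −0.92 to −0.47. Without SCA1 mouse 1 or WT mouse 1, Adcy1 lay below WT in 7 of 13 labels.

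**Figure D5:**
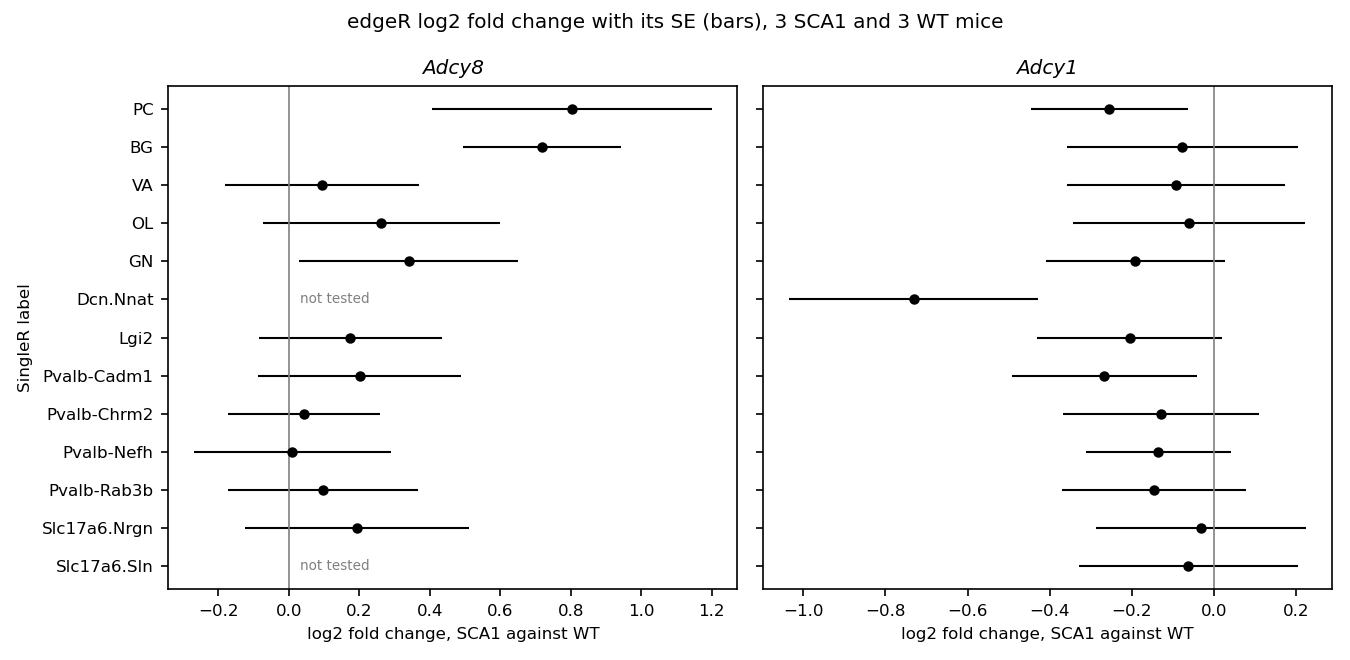
Log2 fold change of Adcy8 and Adcy1, SCA1 over WT, in 13 labels, with error bars of 1 SE from the edgeR fit and a line at 0. All tested points of Adcy8 (11 labels) lie above 0 and all of Adcy1 (13 labels) below, and most lie within a few SE of 0.

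Among the lower genes, Adcy3 in BG was at 13.6, 14.2 and 16.0 CPM in the SCA1 mice and at 10.2, 3.90 and 9.33 CPM in the WT mice. The groups did not overlap, from 2 to 50 UMIs a mouse, and WT mouse 2, with the fewest UMIs per nucleus, had the lowest value. The log2 fold change was 0.74 (SE 0.39, edgeR unadjusted p = 0.0821). Adcy6 in VA was at 19.9, 22.1 and 21.2 CPM in the SCA1 mice and at 14.6, 9.90 and 16.3 CPM in the WT mice. The SCA1 mice were again all higher, on 4 to 55 UMIs a mouse, and the log2 fold change was 0.57 (SE 0.35, edgeR unadjusted p = 0.129). In VA too the fibroblast sum was higher in all SCA1 mice (32.2 to 37.0 CPM, WT 17.3 to 25.6 CPM) and the mural sum lower (45.5 to 63.7 CPM, WT 65.1 to 89.1 CPM). Adcy6 was at 35.7 CPM in the label with fibroblast genes, and their part in its VA values was not tested. In GN Adcy3 had a change of −0.11 (SE 0.19, edgeR unadjusted p = 0.584). For Adcy3 the difference of the BG effect from that in GN was 0.81 (edgeR interaction unadjusted p = 0.0389, adjusted p = 1).

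Adcy2 in BG and VA and Adcy5 in OL showed no such separation. For Adcy2 in BG the SCA1 mice had 323, 369 and 684 CPM and the WT mice 293, 497 and 764 CPM (log2 fold change −0.13, SE 0.30), and in VA the change was 0.22 (SE 0.27). Adcy5 in OL was at 66.6 ± 17.7 and 76.1 ± 22.6 CPM (−0.15, SE 0.28). In the remaining 14 tested pairs of the main labels, which include every main-label value of Adcy9, the log2 fold change ran from −0.42 to 0.17, the unadjusted p from 0.267 to 0.997, and 0 pairs were without overlap. One of these pairs was Adcy7 in GN, with a change of −0.00098 (SE 0.26) at 1.78 and 1.74 CPM, and Adcy7 could be tested in 4 labels in all.

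When single nuclei in place of mice were tested, Adcy8 in BG had a log2 difference of 0.40 (adjusted p = 4.34e-09) and Adcy1 in OL one of −0.16 (adjusted p = 0.0370), where 1.58% of all genes in BG and 0.705% in OL were called. In PC and VA 0 of the 8 cyclases were called, with 1.92% and 0.652% of all genes. Nuclei of 1 mouse are not replicates, so these p-values count the nuclei and not the mice.

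The rest of the cAMP pathway was read from a list of 51 other genes for G proteins, receptors, protein kinase A subunits and inhibitors, Epac proteins, anchoring proteins, transcription factors and calmodulins. In PC, BG, VA, OL and GN 38, 43, 42, 43 and 48 of them were tested, and 0 were called in either direction by edgeR, with 3, 0, 1, 0 and 1 at an unadjusted p under 0.05. In PCs these were 3 of 38, beside 653 of 9821 over all genes, so the list was near the general rate. The genotypes did not overlap for 5, 0, 4, 1 and 5 of the listed genes, to be read against the shares of all genes given above. In PCs 25 of 38 had a negative fold change, with a median of −0.14 against 0.02 over all genes tested, and in GN 33 of 48 with a median of −0.10 against −0.0025. BG leaned the other way, with 27 of 43 positive and a median of 0.05 against 0.01.

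Gabbr2 and Gabbr1, the subunits of the GABA-B receptor that lowers cAMP through inhibitory G proteins, had the lowest p in PCs. Gabbr2 was at 642 ± 192 CPM in SCA1 and 1156 ± 342 CPM in WT mice (log2 fold change −0.84, SE 0.25, unadjusted p = 0.00711, adjusted p = 0.380 by edgeR). Gabbr1 was at 222 ± 14.9 and 338 ± 56.5 CPM without overlap (−0.60, SE 0.20, unadjusted p = 0.0141, adjusted p = 0.507 by edgeR). Lower values in PCs were not particular to this pathway. The summed Purkinje markers Pcp2, Calb1, Car8, Ppp1r17 and Itpr1 were at 10261 to 14560 CPM in SCA1 and 14739 to 21450 CPM in WT mice. Whether these differences are linked was not tested. In BG Gabbr2 was 97.5 ± 28.6 and 68.1 ± 40.1 CPM (0.59, edgeR unadjusted p = 0.0748) and Rapgef4, which encodes the cAMP sensor Epac2, had a change of 0.47 (unadjusted p = 0.0941). In VA the corticotropin-releasing hormone receptor Crhr1 was at 12.7 ± 2.39 and 21.9 ± 5.49 CPM without overlap (−0.85, SE 0.37, edgeR unadjusted p = 0.0390), and the kinase subunit Prkar1b had −0.52 (unadjusted p = 0.0766). In OL the cannabinoid receptor Cnr1 had 0.49 (unadjusted p = 0.136) and Prkar1b −0.35 (unadjusted p = 0.178). In GN the anchoring protein Akap13 was at 18.2 ± 4.16 and 11.7 ± 1.96 CPM without overlap (0.63, SE 0.22, edgeR unadjusted p = 0.0238) and the inhibitory G protein Gnaz had −0.37 (unadjusted p = 0.0917).

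The genes whose mean log2(CPM + 1) over the 16 labels was most like that of a cyclase were listed among 12981 genes, as a description over labels that share the same 6 libraries. For Adcy8 they were Gm21798, which overlaps it (Pearson r = 0.993), Gm29514 (0.952) and Ntm (0.936). For Adcy1 they were Slc25a22 (0.895), A930024E05Rik (0.862) and Il16 (0.851), and for Adcy3 they were Rab6b (0.925), Sergef (0.917) and Pnmal1 (0.908). Adcy2 was closest to Gm1604a (0.880), Sntg2 (0.834) and Whamm (0.830), and Adcy7 to Tasor2 (0.876), Scaf4 (0.867) and Otulinl (0.866). Adcy5 was closest to Nktr (0.881), Fmn1 (0.877) and Atp1b3 (0.848), Adcy6 to Pknox2 (0.874) and Nr1d2 (0.854), and Adcy9 to Sike1 (0.897), Lgals8 (0.877) and Dgka (0.872).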

How the data were processed

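Nuclei of 6 whole cerebella, 1 library per mouse, were profiled with 10x Genomics chemistry. The deposited tables hold UMI counts per gene and nucleus, made by the authors with Cell Ranger (4.0.0, 5.0.1 and 6.0.1 are named in the submitters' processing notes) on mm10 with human ATXN1 added and intronic reads included. The authors removed debris with DIEM and named each nucleus with SingleR from the DropViz reference, beside Seurat 4.0.4 and R 4.1.0. Nuclei removed before deposit could not be seen, and doublets were not called here.

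Counts were summed over the nuclei of each mouse and SingleR label as deposited. The paper also asked for a matching Seurat cluster, which was required here only as an alternative setting. The cluster matched in 1126 of 1243 BG and 273 of 292 PC nuclei. It matched in 0 of 458 Neuron.Gad1Gad2.Pvalb-Rab3b, 38 of 263 Neuron.Gad1Gad2.Pvalb-Chrm2 and 115 of 240 Neuron.Gad1Gad2.Lgi2 nuclei. Levels in such labels describe the label and not a settled cell type. Under that setting 48 neighbouring pairs could be compared, against 120. Labels with at least 10 nuclei in every mouse were tested with edgeR 4.0.16 (R 4.3.3) by the quasi-likelihood test on batch and genotype, after TMM scaling and the filter of filterByExpr (at least 10 counts, total of at least 15), and p-values were adjusted by Benjamini-Hochberg over all genes tested in the label. Batch was read from the library numbers: SCA1 mouse 1 and WT mouse 1 were batch 1 and the other 4 mice batch 2. The p-values measure the spread between 3 mice of each genotype. In the exact permutation tests of neighbouring labels the 6 mice were sign-flipped, on log2(CPM + 1). The script was tested on simulated data.

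The 8 genes and the pathway, marker and granule lists were chosen with earlier results of these data known. Every cyclase was named, and of the pathway list those called plus the 2 lowest unadjusted p in each main label. For likeness the 3 highest correlations were taken among genes of at least 20 CPM in 1 label. One of these genes is not reported here. Positions are from GENCODE M21 (GRCm38), matched by symbol for 8 of 8 genes. No gene sequence was needed for a result, and none is printed. DESeq2 1.42.0, limma 3.58.1 and scran 1.30.0 gave alternatives.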

Additional observations from a re-analysis of the deposited data

Results flagged for a closer look

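Adcy6 had values of opposite sign in a pair of labels, with no overlap between genotypes in either. In VA the log2 fold change was 0.57, with every SCA1 mouse above every WT mouse. In Neuron.Gad1Gad2.Pvalb-Nefh it was −0.38 (SE 0.29, edgeR unadjusted p = 0.224), from 11.4 ± 1.97 CPM in SCA1 and 15.5 ± 0.745 CPM in WT mice, and there the highest SCA1 mouse lay under the lowest WT mouse. The difference between these labels was not tested. In VA the summed fibroblast genes were also higher in every SCA1 mouse (32.2 to 37.0 CPM, WT 17.3 to 25.6 CPM), and their part was not tested. Groups without overlap were found for 4.58% of all genes in VA and for 5.4% in the labels outside the main 5.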

How the results depend on the processing

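In 13 labels 0 cyclases were called between genotypes, and other settings changed this only as follows. With a replicate block, 1 cyclase was called in PCs and 1 over all 13 labels, Adcy8 in PCs (log2 fold change 0.80, edgeR adjusted p = 0.0308). Without the nucleus described above, a setting added after seeing the data, the blocked value was 0.31 (adjusted p = 0.773). The replicate numbers are not known to pair the mice. Same-numbered SCA1 and WT mice deviated together with correlations of 0.040 to 0.90 over the 5 main labels, 12 of 15 above 0.1. The same-numbered mouse was the best match for numbers 1 and 3 in all 5 labels, and for number 2 in PC and GN only. The mice numbered 1 also share batch 1. With the block Adcy8 in BG had 0.72 (adjusted p = 0.185). In tests on single nuclei 1 cyclase was called in BG and 1 in OL.

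Leaving out each mouse in turn, the number of cyclases called lower in BG than in the other main labels was 0 to 1. The 16 calls between cell types were kept in 12 of 12 alternatives. The difference in the share of OL nuclei with Adcy8 was −0.82 percentage points after thinning and 2.28 without. In single-nuclei tests the log2 fold changes of Adcy1 in PCs and Adcy2 in BG became 0.0515 and 0.0217. Leave-one-out ranges that crossed 0 were −0.11 to 0.29 for Adcy8 in VA, −0.34 to 0.17, −0.31 to 0.10 and −0.35 to 0.16 for Adcy1 in BG, VA and OL, −0.24 to 0.0604 for Adcy3 in GN, −0.38 to 0.12 and −0.0261 to 0.40 for Adcy2 in BG and VA, and −0.33 to 0.0841 for Adcy5 in OL. Adcy8 in BG ranged from 0.40 to 0.81 over 16 alternatives, and in PCs from 0.23 to 1.27 over 18. The 0.40 came from the test on single nuclei, which averages log values per nucleus and is on another scale than the sums. On summed counts the lowest value in BG was 0.63, without SCA1 mouse 3. The cause was not tested in any of these. Outside GN, depth limits the genes under about 20 CPM, which rest on few UMIs in WT mouse 2.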

Other observations

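The order of the mice within a genotype differed between the cyclases. Adcy1 was highest in mouse 1 in 16 of 16 labels in both genotypes, and mouse 1 of each genotype made up batch 1. Adcy8 was highest in mouse 3 in 11 of 16 labels in SCA1 and 13 of 16 in WT mice, and Adcy9 in 13 of 16 labels in both. For Adcy2, Adcy3, Adcy5, Adcy6 and Adcy7, no mouse was highest in more than 9 of 16 labels.

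Adcy4, a cyclase outside the 8, stood at 99.5 CPM in Endothelial_Stalk.Flt1.Lrg1. In the PC nuclei of SCA1 mouse 3, a single nucleus held 20 of 22 Adcy2 UMIs. It was not the nucleus rich in Adcy8, which had 0 Adcy2 UMIs. In WT mouse 3 a single PC nucleus held 41 of 156 Adcy1 UMIs.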
